A study of Mus musculus with 6 samples.

Results

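The aminoacyl-tRNA synthetases, the enzymes that load each tRNA with its amino acid, were followed in mouse cells labelled as FGSCs, with and without metformin. Defining markers of that cell type were at or near 0 in these libraries, as given below. The 39 genes were taken from a fixed list of synthetase and multisynthetase complex names and found by symbol among the 55401 Ensembl genes of the deposited table. They were 20 genes for cytosolic enzymes, 3 for scaffold proteins and 16 for mitochondrial enzymes, whose symbols end in 2. All 39 had a mean of at least 1 FPKM and so belonged to the 10661 genes that were tested. FPKM is the number of sequenced fragments on a gene per kilobase of the gene, scaled to the mapped fragments of the library, so that levels of different genes can be set side by side.

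mRNA-seq was done on 6 libraries from cells labelled as female germline stem cells, a cultured line of C57BL/6 origin beyond passage 20 that grew on mitotically inactive STO fibroblast feeders with LIF, EGF, bFGF and GDNF. The control group (n = 3) received no treatment, and the metformin group (n = 3) received 1 μM metformin, a biguanide used against diabetes, for 24 h. The comparison asks which transcripts differ after metformin treatment. Whether the repeats were separate cultures is not given in the sources used here, so the p-values measure only the spread between these libraries.

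The label of the cells was checked against marker genes. None of 6 germline stem cell markers reached a mean of 1 FPKM, and Dazl, Pou5f1 and Dppa3 were listed at 0 in all 6 libraries. Ddx4, the germ cell helicase, was at most 0.05 FPKM. The highest value of the list was 1.32 FPKM, for Ifitm3 in control replicate 1. Of 10 fibroblast markers, as the feeders would carry, all were below 1 FPKM, with sums of 0.8 to 0.97 FPKM per library. All 10 blood cell markers passed 1 FPKM. Their sum was 577.78 to 578.7 FPKM in the control libraries and 582.93 to 599.45 in the metformin libraries. Singly, 5 were higher and 5 lower on average with metformin, with a median log2 fold change of -0.0042. In 3 of them each metformin library lay above each control library, and in 1 each lay below. Of all tested genes 8.89% and 8.1% did so. The part of these markers in the results below was not tested. In bulk RNA, fewer cells of a type and less RNA per cell cannot be told apart. The estimated depth was 13400000 to 14000000 fragments per library, and 1 fragment on 1 kb of gene was worth 0.0714 to 0.0746 FPKM.

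Synthetases pair each amino acid with its tRNA in an ATP-dependent reaction and so set the accuracy of protein synthesis. They fall into structural classes I and II. In mammals a group of the cytosolic enzymes is held in the multisynthetase complex by the scaffold proteins Aimp1, Aimp2 and Eef1e1, while the others work outside it. Mitochondria import a set of their own, encoded in the nucleus, to translate the few proteins of mitochondrial DNA. Gars and Kars each encode both the cytosolic and the mitochondrial form. When a tRNA stays uncharged, the kinase GCN2 (Eif2ak4) phosphorylates eIF2, and the transcription factor ATF4 is then made and acts on many genes of amino acid supply, several cytosolic synthetases among them. ATF4 with a C/EBP partner binds the C/EBP-ATF response element, whose core reads TGATGNAA, or TTNCATCA from the other strand.

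Promoter sequence is shown first for the members in which this core was found, with the match in capitals, since the cytosolic genes without overlap between groups include most of them. The sequences are from RefSeq on GRCm38.p6, read 5′ to 3′ on the strand of the gene.
Aars, chr8:111033704-111033763, plus strand, match from 112 bases before the start: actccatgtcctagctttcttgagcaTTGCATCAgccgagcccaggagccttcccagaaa
Aars, chr8:111033840-111033869, plus strand, match from base 10 of the transcript: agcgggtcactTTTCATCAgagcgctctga
Gars, chr6:55037941-55038000, plus strand, match from 30 bases before the start: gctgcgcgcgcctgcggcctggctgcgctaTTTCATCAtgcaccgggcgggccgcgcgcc
Tars, chr15:11399659-11399718, minus strand, match from 15 bases before the start: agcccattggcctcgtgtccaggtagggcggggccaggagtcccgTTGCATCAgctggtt
Yars, chr4:129189895-129189924, plus strand, match from base 4 of the transcript: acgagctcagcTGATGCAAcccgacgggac
Iars, chr13:49682126-49682155, plus strand, match from base 8 of the transcript: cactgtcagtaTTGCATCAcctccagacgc
The last bases before the start of 2 genes whose windows held no match are given for contrast, Sars because it was higher with metformin and Dars because it was lower.
Sars, chr3:108445260-108445319, minus strand: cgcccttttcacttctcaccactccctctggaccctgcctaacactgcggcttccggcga
Dars, chr1:128417417-128417476, minus strand: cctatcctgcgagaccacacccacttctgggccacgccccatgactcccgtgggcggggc

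The windows searched ran from 250 bases before to 50 bases after each RefSeq start, on both strands. A window was at hand for 30 of the 39 members, namely 13 cytosolic, 3 scaffold and 14 mitochondrial genes. Cars, Hars, Lars, Nars, Rars, Vars, Wars, Hars2 and Pars2 had none. The core was found in 5 members, all of them cytosolic, and in 0 of the 14 mitochondrial genes. Over all genes it was found in 1304 of 32851 windows (3.97%), and among tested genes with a window in 176 of 6834 (2.58%). The 0 of 14 is near both shares. Of the printed matches, only that of Yars reads TGATGNAA on the strand of the gene. The RefSeq start of Aars lies downstream of its start in the deposited table.

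Metformin and control libraries differed little in these transcripts, and no member passed the test. The lowest adjusted p of the 39 was 0.283 (Aars, limma with Benjamini-Hochberg adjustment), the highest was 0.975 (Yars2), and 0 members had an adjusted p under 0.05, where 0.0281% of all tested genes had. Those were 3 genes. The members were therefore described by the order of their libraries. Of the 20 cytosolic enzymes, 15 were higher on average with metformin. Among all tested genes 5580 of 10661 were higher on average, a share to set beside each such count here. In 10 of the 20, each metformin library lay above each control library, where 8.89% of all tested genes did so. In 2, Dars and Rars, each metformin library lay below each control library, where 8.1% of all tested genes did so. Of the 16 mitochondrial enzymes, 7 were higher on average. Without overlap, 1 was higher (Ears2, and 2 genes with quantile normalization or median centring) and 2 were lower (Iars2 and Mars2). These became 3 higher without control replicate 1 and 4 lower without metformin replicate 1, where fewer libraries overlap less easily. With all libraries, the mitochondrial counts are near the shares of all tested genes. The 3 scaffolds all overlapped between groups. The difference between these groups of members was not tested.

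**Figure D1:**
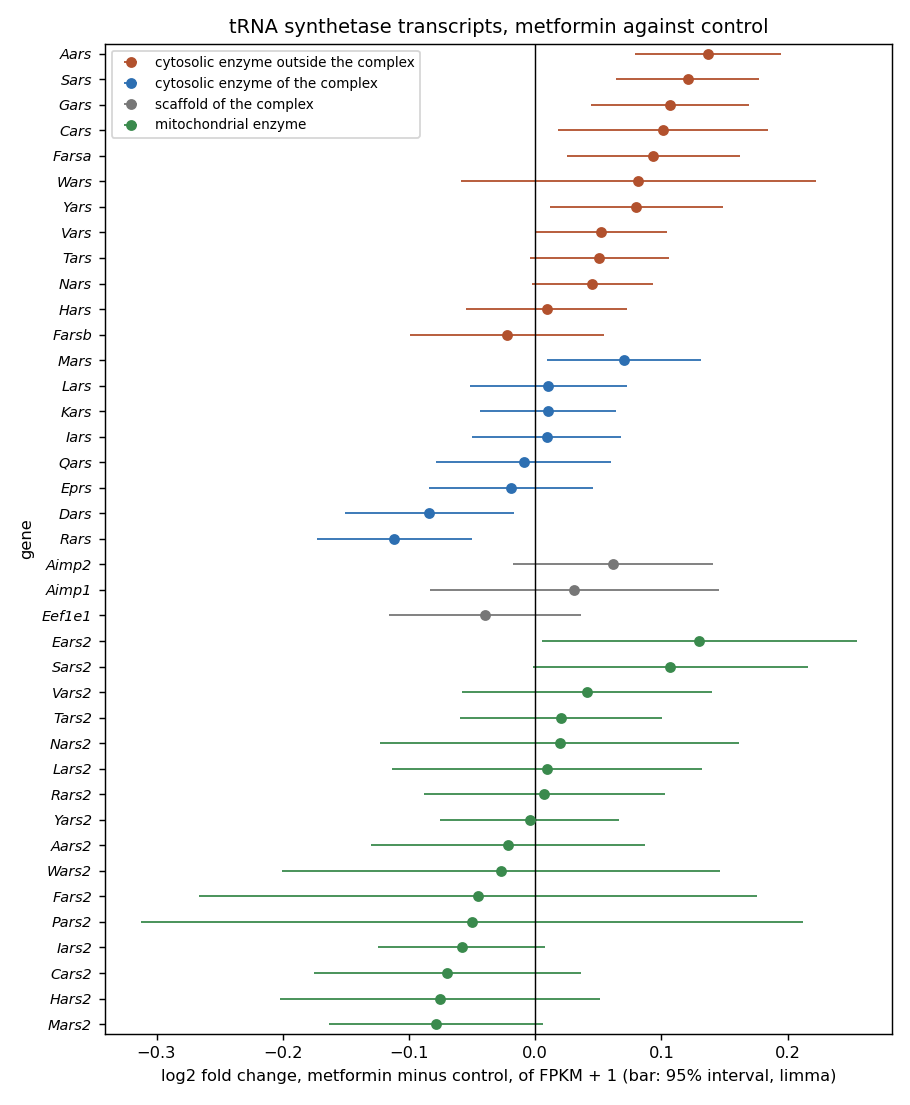
Log2 fold change of FPKM + 1 for each of the 39 genes, metformin minus control, with the 95% interval from limma, coloured by the group of the gene. The points of the cytosolic enzymes outside the complex lie to the right of 0 except for Farsb, at -0.022, and the intervals of the mitochondrial enzymes are mostly wider.

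An unadjusted p under 0.05 was reached by 8 cytosolic enzymes that were higher, where 6.03% of all tested genes were higher at that p, and by 2 that were lower, where 4.81% were. The higher count was 4 without control replicate 2, 5 without metformin replicate 2 and 5 without metformin replicate 3, and the lower count was 1 without control replicate 1 and 1 without metformin replicate 2. Without the variance trend the counts were 5 and 1. Among the mitochondrial enzymes 1 (Ears2) reached it in the higher direction and 0 in the lower one. The former was 0 without control replicate 2, control replicate 3 or metformin replicate 2. The median log2 fold change was 0.048 over the cytosolic enzymes, with a range from -0.11 to 0.14. It was -0.013 over the mitochondrial enzymes (0.018 without metformin replicate 3 and 0.0013 without control replicate 2) and 0.0041 over all tested genes. All log2 fold changes given here are of FPKM + 1, which understates the difference of genes at a few FPKM.

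Summed over the 20 cytosolic enzymes, the level was 1170, 1158 and 1174 FPKM in control replicates 1 to 3 and 1187, 1193 and 1206 FPKM with metformin. The groups of sums did not overlap, with means of 1167 ± 8.22 and 1195 ± 9.74 FPKM (SD, n = 3 each). Summed over the 16 mitochondrial enzymes, the level was 141.56, 142.82 and 143.33 FPKM in the control libraries and 140.72, 144.24 and 139.59 FPKM with metformin. These sums overlapped.

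The cytosolic enzymes inside and outside the multisynthetase complex were then set side by side. Outside the complex, 9 of 12 enzymes were higher without overlap, 0 were lower, and 3 overlapped (Farsb, Hars and Wars). In the complex, 1 of 8 enzymes was higher without overlap (Mars), 2 were lower, and 5 overlapped. Of all tested genes 8.89% were higher and 8.1% lower without overlap, and the 1 of 8 is near the former share. These counts were the same under each scaling tried. The median log2 fold change was 0.081 outside the complex and 2.5e-05 within it. The sum of the 12 enzymes outside was 731.47, 719.25 and 733.21 FPKM in the control libraries and 756.53, 762.2 and 767.6 FPKM with metformin, all 3 above the controls. The sum of the 8 enzymes of the complex was 438.42, 438.96 and 440.85 FPKM in the control libraries and 430.04, 431.27 and 438.2 FPKM with metformin, all 3 below the controls. The nearest libraries of the complex were almost equal, at 438.2 and 438.42 FPKM. With each library rescaled to the same total (TPM) both orders held, and those of the complex came nearest at 1371.57 and 1372.95 TPM. Singly, 4 of the 8 enzymes of the complex were higher on average and 4 were lower. Their largest log2 fold changes were those of Rars (-0.11) and Dars (-0.084), so the lower sum is not shared by each enzyme. The difference between the 2 sets of genes was not tested, since genes are not replicates of a condition.

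**Figure D2:**
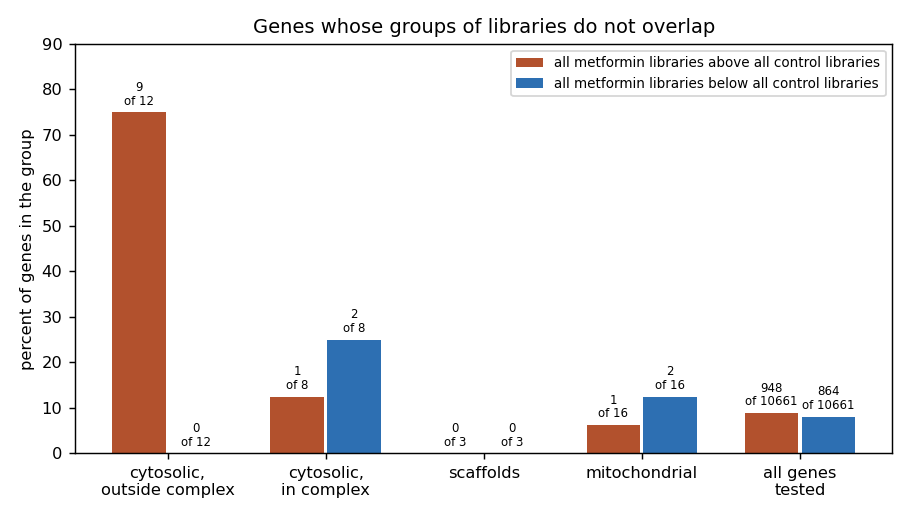
Share of each group of genes, in percent, in which all metformin libraries lay above (brown) or below (blue) all control libraries, with the counts over the bars. The cytosolic enzymes outside the complex had 9 of 12 genes higher, beside 948 of 10661 for all tested genes.

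Among the enzymes outside the complex, Aars, the alanyl-tRNA synthetase (chr8:111033144-111057664, GRCm38), had the lowest p. Its level was 30.97, 31.11 and 30.83 FPKM in the control libraries and 33.58, 34.62 and 34.27 FPKM with metformin. The control values were close together (SD 0.14 FPKM) and all lay below the metformin values. The mean was 10.3% higher, a log2 fold change of 0.14 ± 0.025 (SE, adjusted p = 0.283, limma). Its promoter window held the core in 2 places, as printed above.

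Sars, the seryl-tRNA synthetase (chr3:108424865-108445209), was at 72.24, 72.87 and 73.66 FPKM in the control libraries and at 81.16, 77.62 and 79.38 FPKM with metformin. The lowest metformin value stood above the highest control value by more than the whole range of the controls. The mean was 8.86% higher, a log2 fold change of 0.12 ± 0.024 (SE, adjusted p = 0.301, limma). Gars, the glycyl-tRNA synthetase (chr6:55038007-55079500), had the highest level of all 39 genes. It was at 132.36, 125.71 and 133.40 FPKM in the control libraries and at 139.53, 141.54 and 140.58 FPKM with metformin. The groups did not overlap, and control replicate 2 was the low library of its group. The log2 fold change was 0.11 ± 0.027 (SE, adjusted p = 0.337, limma). The deposited gene covers both forms of the enzyme, which share 1 level here.

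Cars, the cysteinyl-tRNA synthetase (chr7:143557230-143600090), was among the lowest cytosolic genes, with 16.11, 15.96 and 15.22 FPKM in the control libraries and 17.28, 16.49 and 17.17 FPKM with metformin. The gap between groups was narrow, from 16.11 to 16.49 FPKM. The log2 fold change was 0.10 ± 0.035 (SE, adjusted p = 0.392, limma). Farsa encodes the catalytic alpha subunit of the phenylalanyl-tRNA synthetase (chr8:84856989-84869257). It was at 31.48, 30.85 and 32.57 FPKM in the control libraries and at 34.35, 33.56 and 33.53 FPKM with metformin, without overlap (log2 fold change 0.094 ± 0.029, adjusted p = 0.367, limma). The gene of the beta subunit of the same enzyme, Farsb, was at 73.77, 74.44 and 74.82 FPKM and then at 69.62, 75.06 and 74.99 FPKM. Only its metformin replicate 1 stood away from the others, on the low side, so that the subunit genes differed in order between groups.

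Yars, the tyrosyl-tRNA synthetase (chr4:129189760-129219607), was at 39.77, 38.13 and 40.37 FPKM in the control libraries and at 41.15, 42.30 and 41.73 FPKM with metformin. All metformin values were higher, and the log2 fold change was 0.080 ± 0.029 (SE, adjusted p = 0.406, limma). Vars, the valyl-tRNA synthetase (chr17:35000987-35016322), was at 72.99, 71.63 and 74.17 FPKM in the control libraries and at 75.23, 76.16 and 75.58 FPKM with metformin. It was higher without overlap by 3.74% of its mean (log2 fold change 0.052 ± 0.022, adjusted p = 0.456, limma). Nars and Tars, the asparaginyl- and threonyl-tRNA synthetases, were higher without overlap by 3.21% and 3.66%, with an unadjusted p above 0.05. Nars was at 123.32 to 126.13 FPKM in the control libraries and 127.61 to 130.88 FPKM with metformin. Tars was at 46.70 to 48.14 FPKM and 48.78 to 49.71 FPKM.

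Hars and Wars, the histidyl- and tryptophanyl-tRNA synthetases, overlapped between groups. Hars was at 70.58 to 74.05 FPKM in the control libraries and 71.42 to 73.40 FPKM with metformin. Wars was at 16.84, 14.61 and 14.73 FPKM in the control libraries and at 16.49, 15.53 and 16.96 FPKM with metformin, and control replicate 1 lay within the metformin values. Wars had the lowest level of the 20 cytosolic genes and the largest spread of them, 6.47% of its mean within groups.

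**Figure D3:**
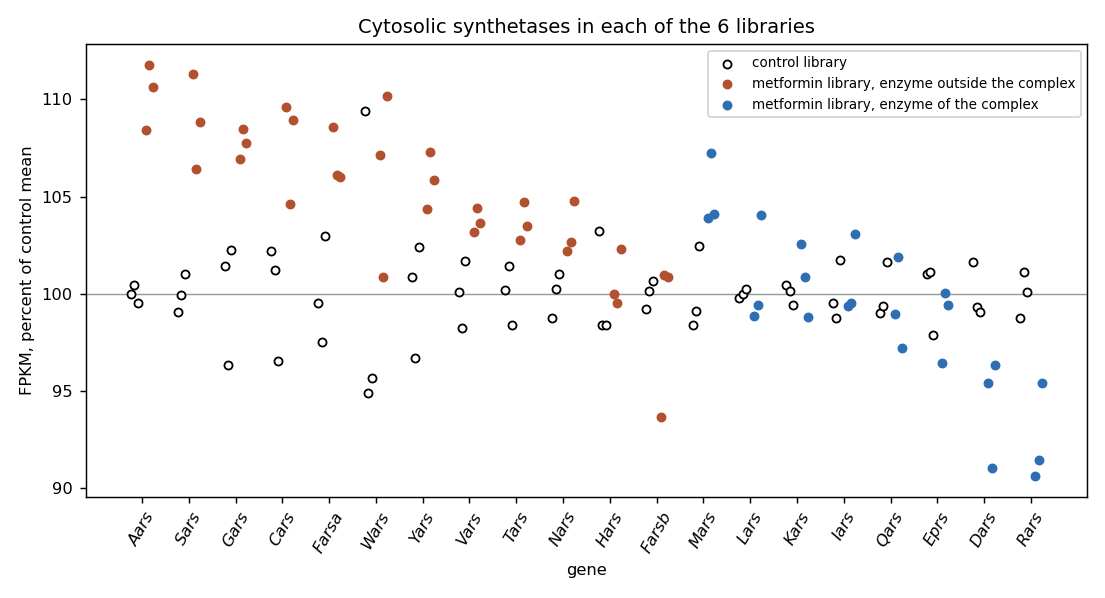
FPKM of each cytosolic synthetase in each of the 6 libraries, in percent of the mean of the control libraries. Open points are control libraries, brown points are metformin libraries of enzymes outside the complex and blue points those of enzymes of the complex, and the brown points of 9 of 12 genes lie above all open points of the same gene.

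Among the enzymes of the complex, Rars, the arginyl-tRNA synthetase (chr11:35808381-35834506), had the largest difference in the lower direction of the 39 genes. Its level was 84.84, 86.86 and 85.98 FPKM in the control libraries and 77.85, 78.55 and 81.94 FPKM with metformin. All metformin values were lower, by 7.51% on average, a log2 fold change of -0.11 ± 0.026 (SE, adjusted p = 0.320, limma). Dars, the aspartyl-tRNA synthetase (chr1:128363707-128417368), was at 60.73, 59.32 and 59.17 FPKM in the control libraries and at 57.01, 54.39 and 57.55 FPKM with metformin. It was lower without overlap by 5.73% (log2 fold change -0.084 ± 0.028, adjusted p = 0.390, limma).

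Mars, the methionyl-tRNA synthetase (chr10:127296221-127311786), was the 1 enzyme of the complex that was higher without overlap. It was at 57.27, 57.69 and 59.63 FPKM in the control libraries and at 60.47, 62.41 and 60.58 FPKM with metformin. The gap between groups was less than 1 FPKM, from 59.63 to 60.47, and the log2 fold change was 0.070 ± 0.026 (SE, adjusted p = 0.413, limma). The end of Mars overlaps that of Ddit3 on the other strand over 68 bp (chr10:127296221-127296288). Ddit3 was at 7.33 ± 0.435 FPKM in the control group and 12.9 ± 0.531 FPKM with metformin (SD, n = 3 each). Whether counting used the strand is not given in the sources used here, and the part of shared fragments in the value of Mars was not tested.

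The other 5 enzymes of the complex overlapped between groups and differed by at most 1.35% of their control mean. Eprs, which joins the glutamyl- and prolyl-tRNA synthetases in 1 protein, was at 34.5 ± 0.632 FPKM in the control group and 34.1 ± 0.669 FPKM with metformin (SD, n = 3 each). Iars (isoleucine) was at 63.2 ± 0.974 and 63.6 ± 1.33 FPKM, and Lars (leucine) at 53.4 ± 0.130 and 53.8 ± 1.52 FPKM. Kars (lysine) was at 61.9 ± 0.332 and 62.4 ± 1.18 FPKM, and Qars (glutamine) at 22.5 ± 0.317 and 22.4 ± 0.531 FPKM. The 95% interval of the log2 fold change of Kars ran from -0.044 to 0.064, so that a difference of a few percent in either direction cannot be told from none here.

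Of the scaffolds, Aimp2 was at 39.28, 37.90 and 40.34 FPKM in the control libraries and at 39.63, 42.01 and 41.13 FPKM with metformin (log2 fold change 0.062). Aimp1 was at 17.21 to 19.57 FPKM and 18.31 to 19.24 FPKM, and Eef1e1 at 43.95 to 46.09 FPKM and 42.07 to 44.56 FPKM. Their summed level was 102.58 ± 1.81 FPKM in the control group and 103.49 ± 2.38 FPKM with metformin.

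Among the mitochondrial enzymes, Ears2, the glutamyl-tRNA synthetase (chr7:122037213-122067263), was the 1 gene with an unadjusted p under 0.05. Its level was 3.98, 3.74 and 3.97 FPKM in the control libraries and 4.11, 4.46 and 4.51 FPKM with metformin. The groups came nearest at 3.98 and 4.11 FPKM, and the log2 fold change was 0.13 ± 0.053 (SE, adjusted p = 0.450, limma). The start of Ears2 overlaps Ubfd1 on the other strand over 89 bp. Mars2, the methionyl-tRNA synthetase of mitochondria (chr1:55237177-55248470), was at 10.11, 9.55 and 10.04 FPKM in the control libraries and at 9.38, 9.21 and 9.37 FPKM with metformin. It was lower without overlap (log2 fold change -0.079 ± 0.036, adjusted p = 0.488, limma), while its cytosolic counterpart Mars was higher.

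Iars2 (isoleucine) was lower without overlap, at 19.24 to 19.50 FPKM in the control libraries and 18.32 to 18.95 FPKM with metformin. It shares 2034 bp with Rab3gap2 on the other strand. Sars2 (serine) missed separation only by control replicate 1, at 7.99 FPKM, against a lowest metformin value of 7.98 FPKM. Its log2 fold change was 0.11 ± 0.046 (SE, adjusted p = 0.467, limma). The remaining 12 genes overlapped, with log2 fold changes from -0.075 (Hars2) to 0.041 (Vars2). The 7 class II enzymes of mitochondria included no gene without overlap. Of the cytosolic class II enzymes 6 of 10 were higher without overlap and 1 was lower, and of the cytosolic class I enzymes 4 of 9 were higher and 1 was lower. With 8.89% of all tested genes higher and 8.1% lower without overlap, 0 of 7 and the single lower genes are near those shares, and the classes were not tested against each other. In all, 12 of the 39 members overlap in position with another gene of at least 1 FPKM, where fragments could be shared. Of the members without overlap between groups these are Mars, Ears2, Iars2 and Yars, the last by 30 bp with C77080. Hars and Hars2 share 198 bp at their starts.

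The levels themselves separated the compartments. Mean levels of the cytosolic enzymes ran from 15.9 FPKM (Wars) to 136 FPKM (Gars) with a median of 58.9 FPKM. The next after Gars was Nars at 127 FPKM, and the values of these genes overlapped among the control libraries. Mean levels of the mitochondrial enzymes ran from 2.53 FPKM (Wars2) to 19.0 FPKM (Iars2) with a median of 7.82 FPKM. Only Cars and Wars among the cytosolic genes lay below the top of the mitochondrial range.

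**Figure D4:**
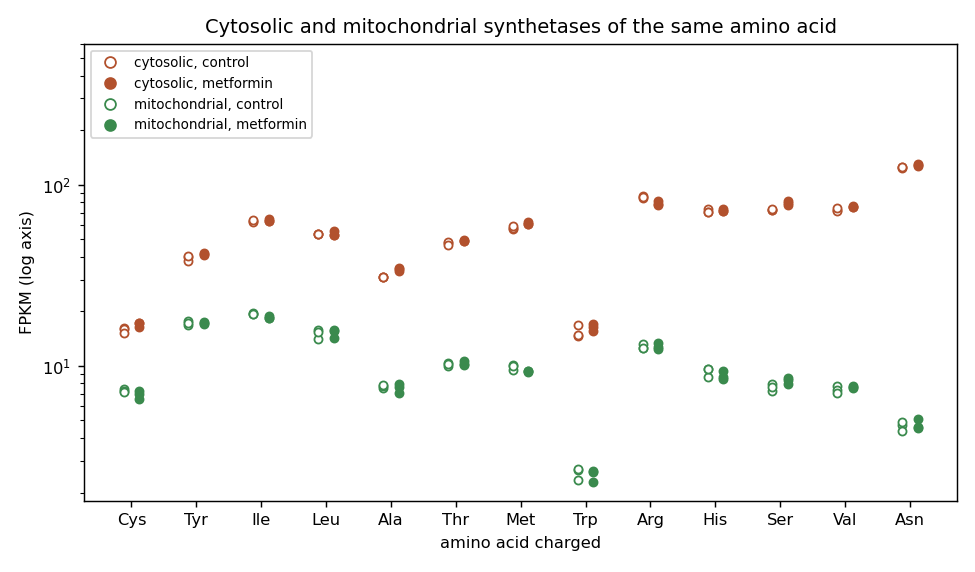
FPKM on a log axis of the cytosolic (brown) and mitochondrial (green) enzymes that charge the same amino acid, in control (open) and metformin (filled) libraries. The cytosolic gene is above the mitochondrial gene in each library for all 13 amino acids, by 2.13-fold to 28.7-fold.

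For 13 amino acids a cytosolic and a mitochondrial gene could be set against each other within each library. The cytosolic level was the higher in all 6 libraries for 13 of 13 pairs. The ratio ran from 2.13 (cysteine, control replicate 3) to 28.7 (asparagine, control replicate 2), and the median of the control means was 5.88. The log2 fold change of the cytosolic gene was above that of the mitochondrial gene in 12 of 13 pairs. The count was 9 to 12 with 1 library left out, and 4 with a minimum of 10 FPKM, which left 5 pairs. It is a description, since the share over other pairs of genes was not computed. The pair of arginine was the exception, with -0.11 for Rars and 0.0073 for Rars2. For leucine the values were nearly equal, at 0.011 and 0.0097.

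The ratio of the pair did not overlap between groups for alanine, cysteine, methionine and tyrosine, and was higher with metformin in these 4. No pair was lower without overlap. This count of 4 of 13 is likewise a description only. Aars stood to Aars2 at 4.08, 4.04 and 3.95 in the control libraries and at 4.21, 4.54 and 4.81 with metformin. Cars stood to Cars2 at 2.16, 2.19 and 2.13, and then at 2.39, 2.37 and 2.62. Mars stood to Mars2 at 5.66, 6.04 and 5.94, and then at 6.45, 6.78 and 6.47, and both genes of this pair contributed, the cytosolic one being higher and the mitochondrial one lower. Yars stood to Yars2 at 2.35, 2.16 and 2.34, and then at 2.43, 2.42 and 2.42.

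Depth differed between the compartments. By approximate exon lengths, the cytosolic genes had 695 to 5983 fragments per library and the mitochondrial genes 83 (Fars2) to 2393 (Iars2). Counting error alone was 1.87% of the level for the median cytosolic gene and 5.21% for the median mitochondrial gene. The spread within groups was 1.99% and 4.07%. The counting error rests on approximate lengths, and its median over the mitochondrial genes exceeded the median of the measured spread, so it is only a rough guide. Some mitochondrial genes were as even as the median cytosolic gene, with a spread within groups of 1.34% for Iars2 and 1.92% for Tars2. The part of depth in the counts of either compartment was not tested.

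The cytosolic genes were next grouped by whether they are often listed as ATF4 targets, a list of 12 made from general knowledge. Of the listed genes 8 were higher without overlap and 0 were lower, beside 8.89% and 8.1% of all tested genes, with a median log2 fold change of 0.075. Of the 8 genes not listed, 2 were higher without overlap (Farsa and Vars) and 2 were lower (Dars and Rars), beside the same shares, and the median was -8.4e-05. The listed genes outside the complex were higher without overlap in 7 of 8, Wars being the exception, and those of the complex in 1 of 4 (Mars). Of the genes not listed, 2 of 4 outside the complex were higher without overlap and 0 were lower, while 0 of 4 enzymes of the complex were higher and 2 were lower. The median log2 fold change was 0.091 for listed genes outside the complex and 0.031 for those not listed outside it. Within the complex it was 0.0099 for listed genes and -0.047 for those not listed. The difference between these small sets was not tested.

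Of the 5 members whose promoter window held the TGATGNAA core, Aars, Gars, Tars and Yars were higher without overlap, and Iars overlapped. Sars, Farsa and Mars were higher without overlap with no match in their windows. Over the tested genes with a window, 27 of 176 with the core (15.3%) were higher without overlap and 14 (7.95%) were lower. The 27 include Aars, Gars, Tars and Yars, and the 176 also include Iars, so this share is not independent of the members. Without the core the counts were 639 of 6658 (9.60%) and 547 (8.22%). The median log2 fold change was 0.0058 in both sets. A match of 8 letters is a description of the sequence, and binding was not measured here.

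On a list of 18 genes of the ATF4 response and its targets outside the synthetases, 17 were tested and all 17 were higher on average with metformin, 15 of them without overlap, where 8.89% of all tested genes were higher without overlap. This list, like the others, was made with earlier results of these data known and is no independent support. Trib3, Chac1 and Ddit3 had an adjusted p under 0.05 in limma, and they were the 3 genes that did among the 10661 tested (7 genes when all genes above 0 in any library were fitted). Trib3, a pseudokinase, was at 6.56 ± 0.318 FPKM in the control group and 16.05 ± 0.334 FPKM with metformin (SD, n = 3 each). Its log2 fold change was 1.17 ± 0.042 (SE, adjusted p = 0.000127, limma). Chac1, which degrades glutathione, was at 2.28, 2.79 and 2.49 FPKM in the control libraries and at 6.57, 7.26 and 6.99 FPKM with metformin, a log2 fold change of 1.18 ± 0.068 (SE, adjusted p = 0.00197, limma). Ddit3, whose levels are given beside Mars, had a log2 fold change of 0.74 ± 0.051 (SE, adjusted p = 0.00453, limma). All 3 genes rose in each metformin library. Atf4 itself, named here after its values were seen, was at 204 ± 3.59 and 231 ± 8.30 FPKM (log2 fold change 0.18, adjusted p = 0.243, limma). The median log2 fold change of this list was 0.16, against 0.075 for the listed synthetases.

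A list of 24 genes, mostly partners of tRNA charging such as elongation factors, editing enzymes and the GCN2 kinase, was described in the same way. All 24 were tested, 12 were higher and 12 lower on average, and 0 had an adjusted p under 0.05 in limma. Of these 4 were higher without overlap and 1 was lower, beside 8.89% and 8.1% of all tested genes. At an unadjusted p under 0.05, 2 were higher and 1 was lower, beside 6.03% and 4.81%. Dtd1, which removes D-amino acids from tRNA, was at 7.96, 8.59 and 8.24 FPKM in the control libraries and at 10.08, 9.18 and 9.61 FPKM with metformin, without overlap (log2 fold change 0.20 ± 0.046, adjusted p = 0.320, limma). Trnt1, which adds the CCA end to tRNA, was at 47.43, 46.34 and 44.84 FPKM and then at 43.40, 41.84 and 43.42 FPKM, lower without overlap (log2 fold change -0.10 ± 0.030, adjusted p = 0.350, limma). Tsfm, a mitochondrial elongation factor, was at 20.69 to 21.72 FPKM and then at 22.15 to 23.23 FPKM (log2 fold change 0.090 ± 0.032, adjusted p = 0.400, limma). Eif2ak4, the sensor of uncharged tRNA, was at 3.28 ± 0.197 FPKM in the control group and 3.33 ± 0.190 FPKM with metformin. Mitochondria make glutaminyl-tRNA through the amidotransferase of Gatb, Gatc and Qrsl1 in place of a synthetase, and these genes had log2 fold changes of 0.082, -0.020 and -0.10.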

How the data were processed

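The authors deposited FPKM values, rounded to 2 decimals, for 6 RNA-seq libraries of cells labelled as FGSCs. Per the labels' processing notes HISAT2, DESeq2 and mm9 were used, with no role given. Gene positions in the table are those of GRCm38, and the counter, annotation and use of strand are not given in the sources used here. The labels name a stranded KAPA kit and the methods of the study a VAHTS kit. No per-sample column was left unused (0), and counts were not part of the files. Symbols came from Ensembl identifiers for 32589 of 55401 genes.

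Genes averaging 1 FPKM or more over the libraries (10661) were fitted on log2(FPKM + 1) in limma 3.58.1 (R 4.3.3, trended moderated variance, two-sided) and adjusted by Benjamini-Hochberg over all of them, with a threshold of 0.05. An exact permutation test of 3 against 3 libraries cannot go below p = 0.1, which each member without overlap reached. Depth was estimated from FPKM steps of single-exon genes under 400 bp, where 100% of 328 to 355 values per library were within 0.1 of a whole fragment. Fragments per gene use NCBIM37 exon lengths and cover counting error only. Members with an unadjusted p under 0.05, the 3 largest differences in each direction, partner and ATF4 genes with an adjusted p under 0.05 and the 3 partner genes with the smallest p were named with their values. The members, lists and rules were chosen with earlier results of these data known. Between any 2 libraries at most 1.48% of values were identical, so none was a copy of another. Alternatives changed the pseudocount, filter, scaling, variance trend, replicate block and libraries.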

Additional observations from a re-analysis of the deposited data

How the results depend on the processing

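No member had an adjusted p under 0.05 under any of 14 alternatives, and the lowest was 0.166. Of the 39 members 24 kept their direction in each alternative run for them. Mitochondrial genes with a mean below 10 FPKM had 13 alternatives, since the minimum of 10 FPKM left them out. The 10 cytosolic genes higher without overlap stayed 10 in number in each setting with all libraries, and the complex and the enzymes outside it kept 1 and 9. With 1 library left out these became 1 to 2 and 9 to 11. With all genes above 0 in any library, 7 genes passed in place of 3, and the mitochondrial genes at an unadjusted p under 0.05 became 0 higher and 2 lower. With a minimum of 10 FPKM, 1085 genes of the table did not overlap (1812 before). The mitochondrial genes left were only Iars2, Lars2, Rars2, Tars2 and Yars2. Of these 3 were higher on average, 0 higher without overlap, 1 lower without overlap and 0 higher at an unadjusted p under 0.05. With rescaling to the same sum (TPM) the latter was 0, with quantile normalization 2. Mitochondrial genes higher without overlap became 2 with quantile normalization and 2 with centring on the median. Without the variance trend, 5 cytosolic genes were higher and 1 lower at an unadjusted p under 0.05.

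Repeat numbers were shared between the groups, and deviations of same-numbered libraries correlated at -0.032, 0.018 and 0.048. Those of differently numbered libraries correlated at -0.050 to 0.030. Whether a number marks a shared culture is not given. These values cannot decide it, since no libraries known to share a culture were at hand. With the replicate block, 2 genes of the table passed, 5 cytosolic genes were higher at an unadjusted p under 0.05 in place of 8, and 0 mitochondrial genes were.

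With 1 library left out in turn, 2851 to 2958 genes of the table did not overlap, since fewer libraries overlap less easily. Cytosolic genes at an unadjusted p under 0.05 were 4 to 7 higher (4 without control replicate 2) and 1 to 2 lower. Mitochondrial genes were 0 to 1 higher and 0 to 1 lower at that p, and 1 to 3 higher and 2 to 4 lower without overlap. The mitochondrial median log2 fold change ran from -0.027 to 0.018 and turned positive without metformin replicate 3 and without control replicate 2 (0.0013), as it did with the minimum of 10 FPKM (0.0073). The cytosolic minus mitochondrial median ran from 0.025, without metformin replicate 3, to 0.073. Directions that turned, with their ranges, were those of Aars2 (-0.054 to 0.017), Aimp1 (-0.016 to 0.072), Fars2 (-0.15 to 0.026), Farsb (-0.041 to 0.013), Hars (-0.0029 to 0.032), Iars (-0.0079 to 0.021), Kars (-0.0027 to 0.024), Lars (-0.012 to 0.024), Lars2 (-0.033 to 0.050), Nars2 (-0.023 to 0.052), Pars2 (-0.15 to 0.033), Qars (-0.027 to 0.0057), Rars2 (-0.024 to 0.030), Wars2 (-0.076 to 0.019) and Yars2 (-0.018 to 0.010). Where no other reason is given, the cause was not tested. Depth was estimated at 83 to 2393 fragments per library for the mitochondrial genes, and its part in these counts was not tested.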
